A study of Mus musculus with 6 samples.

Results

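The genes described here build the actin cytoskeleton and the focal adhesions that couple it to the extracellular matrix. The list holds 49 genes, and 43 of them were measured by a probe set annotated to that gene alone, out of 19938 genes measured in all. A gene with more than 1 such probe set was read from its brightest one, by the mean of the 6 arrays. Actg1, Actr2, Arpc3, Pak1, Ptk2 and Rock2 had no probe set of their own and were not analysed as single genes. The samples were keratinocytes taken by laser capture from the leading edge of the epithelial tongue of mouse skin wounds on day 3, and E-cadherin staining marked the cells. The diabetic group held 3 samples from mice placed on a diet rich in fat and fructose from 8 weeks of age for 16 weeks, and the normal group held 3 samples from mice kept on a control diet for as long. Sections of a sample were captured into a single tube, the tissue was fixed, and the sources used here give neither strain nor sex. The sample titles call the 3 samples of a group biological replicates. Whether each came from its own animal is not stated, and the p-values measure only the spread between these samples.

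Keratinocytes close a wound by crawling over its bed. As background, the small GTPases Rac1 and Cdc42 switch on nucleators that push the cell edge forward with branched actin, while RhoA drives myosin-based contraction through its kinases. Talin, vinculin, paxillin and zyxin tie the filaments to integrins at focal adhesions, where focal adhesion kinase and Src signal the state of the attachment. Many of these genes are classical targets of serum response factor, whose coactivators are held back by unpolymerized actin.

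The promoters of these genes are shown first for that link. Serum response factor binds the CArG box, searched on both strands in windows of 250 bases before to 50 bases after each annotated start (RefSeq, GRCm38.p6). The table held windows for 40 of the 49 genes, 44 windows in all, and 4 of the windows (9.09%) held a CArG box against 1.63% of the 32851 windows of all genes. The box is in capitals below with up to 10 bases on either side, each read 5′ to 3′ on the gene's strand.
Actg1, window chr11:120348446-120348745, minus strand: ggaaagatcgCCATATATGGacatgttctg
Vcl, window chr14:20929148-20929447, plus strand: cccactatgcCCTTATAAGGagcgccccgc
Myl9, window chr2:156775214-156775513, plus strand: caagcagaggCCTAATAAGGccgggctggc
Arpc4, window chr6:113377863-113378162, plus strand: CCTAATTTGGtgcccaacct

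Of the 3 of these 4 genes that were measured, Myl9, encoding a myosin regulatory light chain, alone had an unadjusted p under 0.05. Its whole window is shown with the CArG box in capitals.
Myl9, chr2:156775214-156775513, plus strand: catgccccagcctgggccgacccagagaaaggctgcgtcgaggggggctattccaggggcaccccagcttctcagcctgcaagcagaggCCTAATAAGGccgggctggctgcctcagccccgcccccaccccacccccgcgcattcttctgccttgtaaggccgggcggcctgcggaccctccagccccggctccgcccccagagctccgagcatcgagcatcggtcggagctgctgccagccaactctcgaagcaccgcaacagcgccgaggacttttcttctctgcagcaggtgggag

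The 3 of these 4 genes that were measured differed by 0.03 for Vcl, 0.06 for Arpc4 and 0.34 for Myl9, in log2 signal as diabetic minus normal. The other 32 measured members with a promoter window ran from -0.33 to 0.54. Their median was 0.07, against 0.06 for the 3 with a CArG box. An unadjusted p under 0.05 was found for 3 of the 32, against 5.56% of all genes. A match describes the letters in the window and is not evidence of binding. The Sp1-type motif GGGCGG, searched on both strands, was in 84.1% of the members' windows and in 35.7% of all windows.

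Values are log2 probe set signals throughout, each difference is diabetic minus normal with limma's moderated standard error (SE), and n = 3 arrays per group. Signals of different probe sets are not compared as RNA levels, because probe sets differ in their response. The arrays were dim: the median gene lay between 1.79 and 1.83 on every array, and a background limit, the 95th percentile of 1194 chemosensory receptor genes on the same array, lay between 1.98 and 2.12. Of the 43 members 17 (39.5%) exceeded it on all 6 arrays while 8 never did, against 17.4% and 51.5% of all genes. Above the limit were 27, 31 and 24 members in diabetic replicates 1, 2 and 3, compared with 22, 24 and 20 in the normal ones. Of all genes, 35.3%, 36.6% and 29.4% were above it in the diabetic replicates, against 27.4%, 28.4% and 28.7% in the normal ones. Diabetic replicates 1 and 2 had the lowest limits, 1.98 and 2.01, against 2.11 or 2.12 for the other 4 arrays, and the part of this in those counts was not tested. Below the limit a value gives only a bound on the RNA. In captured tissue, fewer cells of a type and less RNA per cell cannot be told apart.

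**Figure D1:**
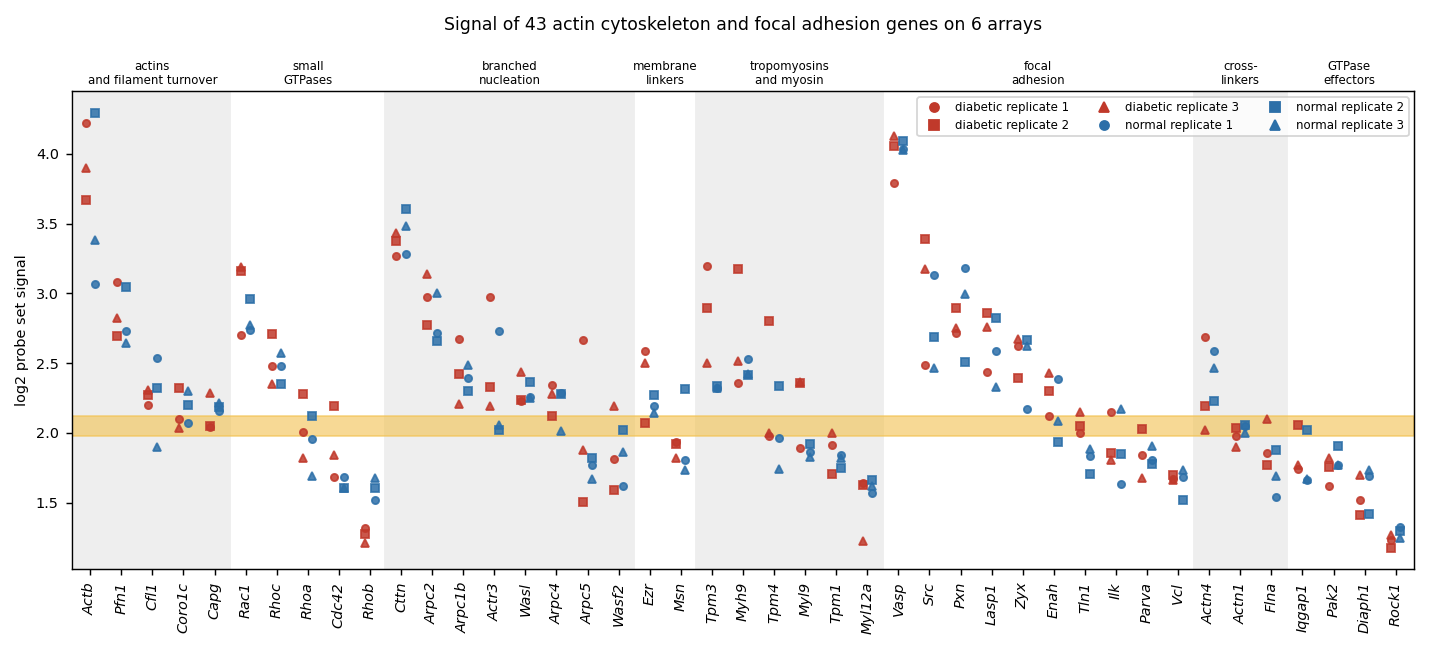
Log2 probe set signal (vertical axis) of the 43 measured genes (horizontal axis, grouped by role and sorted by mean signal), with 3 diabetic arrays in red and 3 normal arrays in blue, and marker shapes for replicates. The yellow band spans the background limits of the 6 arrays, 1.98 to 2.12, and 8 genes, among them Rhob, Rock1, Vcl and Diaph1, exceed the limit on no array, while 17 exceed it on all 6.

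No actin or adhesion gene passed the adjusted threshold in limma, with the smallest adjusted p among the members at 0.780. The share of all 19938 genes that passed was 0%. At an unadjusted p under 0.05 there were 4 members, 9.30% of the 43 against 5.56% of all genes. Tpm3, Myl9 and Tln1 had higher signal in diabetic samples (3 members, against 2.64% of all genes) and Rhob lower signal (1 member, against 2.92% of all genes). The values of the groups did not overlap for 3 members, Tpm3, Tln1 and Rhob, which is 6.98% of the members against 10.7% of all genes. The first 2 were higher in diabetic samples (against 5.02% of all genes) and Rhob lower (against 5.66%). A difference above 0 was found for 30 of 43 members against 48.7% of all genes, and for 13 of the 17 members above the limit on all arrays against 1908 of 3466 such genes (55.0%). The median difference was 0.06 over the members and below 0.01 in size over all genes. Leaving out each array in turn gave between 24 and 30 members with a difference above 0, and 19 of the 43 members kept their sign whichever array was left out. The interval of the difference lay within 2-fold for all 43 members and within 1.5-fold for 35 (81.4%), against 90.9% of all genes. These intervals describe array signal.

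**Figure D2:**
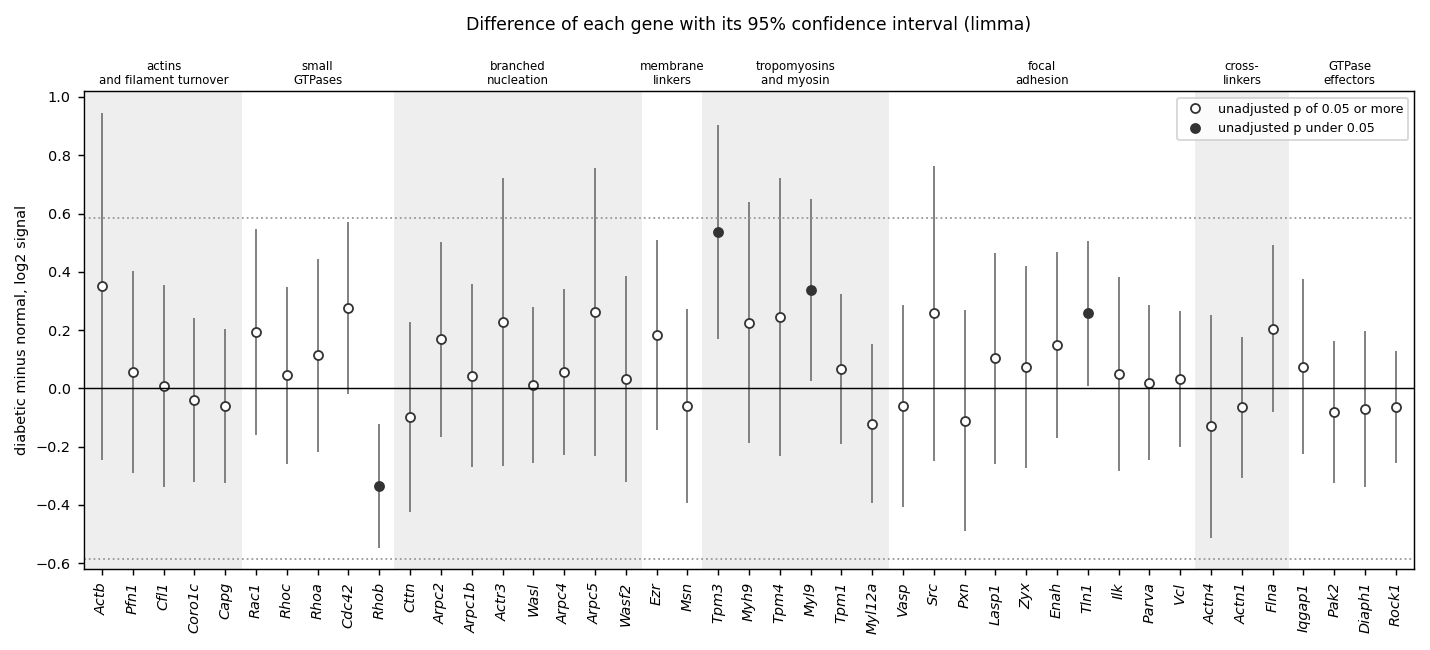
Difference in log2 signal, diabetic minus normal (vertical axis), for each of the 43 genes (horizontal axis, by role), with bars for the 95% confidence interval from limma and dotted lines at 1.5-fold in either direction. Tpm3, Myl9, Tln1 and Rhob (filled) are the genes whose interval leaves out 0, and no adjusted p was under 0.780.

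Among the actins and the proteins that turn filaments over, the 5 measured genes gave differences of 0.35 to -0.06 and none had an unadjusted p under 0.05. Actb, the cytoplasmic beta-actin, read 4.22, 3.67 and 3.90 in diabetic samples against 3.07, 4.29 and 3.38 in normal samples and differed by 0.35 (SE 0.27). Normal replicate 2 was the highest of the 6 arrays and normal replicate 1 the lowest, so the groups overlapped. Without normal replicate 2 the difference was 0.71, and without normal replicate 1 it was 0.09. Pfn1, profilin, which delivers actin monomers to growing ends, read 3.08, 2.69 and 2.82 in diabetic samples against 2.73, 3.05 and 2.65 in normal samples and differed by 0.06 (SE 0.16). Cfl1, cofilin, which severs old filaments, read 2.20, 2.27 and 2.31 in diabetic samples against 2.54, 2.32 and 1.89 in normal samples and differed by 0.01 (SE 0.16). The groups overlapped for both genes, and for Cfl1 the diabetic arrays lay inside the range of the normal ones. Coro1c, a coronin of the actin cortex, and Capg, a capping protein, differed by -0.04 and -0.06.

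Actg1, the cytoplasmic gamma-actin, was represented only through 4 probe sets annotated to both Actg1 and Actb. They differed by 0.20, -0.03, 0.14 and 0.11, with adjusted p values of 0.893 to 0.988 in the limma fit of all 35556 probe sets. Normal replicate 2 was the highest of the 6 arrays on all 4 of them, at 2.20 to 2.82, as it was on the Actb probe set. Actg1 and Actb cannot be told apart on them.

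Of the 5 small GTPases, Rhob stood lower in diabetic samples, and the other 4 had differences above 0. Rhob, an endosomal GTPase encoded by an immediate-early gene, read 1.32, 1.27 and 1.21 in diabetic samples against 1.52, 1.60 and 1.68 in normal samples. Every diabetic array lay below every normal one, a difference of -0.33 (SE 0.10, 95% interval -0.55 to -0.12, unadjusted p 0.00509, adjusted p 0.780 in limma). The difference stayed between -0.37 and -0.30 whichever array was left out, with an unadjusted p under 0.05 each time. All 6 values lay under the background limit, at the 14.8th percentile of mean gene signal, so the values do not establish that the RNA differed.

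Rac1, the driver of lamellipodia, read 2.70, 3.16 and 3.19 in diabetic samples against 2.73, 2.96 and 2.77 in normal samples and differed by 0.19 (SE 0.16). Diabetic replicate 1 was the lowest of the 6 arrays, and without it the difference was 0.35. Cdc42, which directs filopodia and polarity, read 1.69, 2.19 and 1.84 in diabetic samples against 1.69, 1.60 and 1.60 in normal samples and differed by 0.28 (SE 0.14, adjusted p 0.893 in limma). Only diabetic replicate 2 exceeded the limit for Cdc42, and without it the difference was 0.13. Rhoa, the activator of contraction, read 2.01, 2.28 and 1.82 in diabetic samples against 1.95, 2.12 and 1.69 in normal samples and differed by 0.11 (SE 0.15). Rhoc read 2.48, 2.71 and 2.35 in diabetic samples against 2.48, 2.35 and 2.57 in normal samples and differed by 0.05 (SE 0.14). The groups overlapped for both Rhoa and Rhoc.

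The 4 measured effectors of these GTPases were dim, and none exceeded the limit on all arrays. The kinases Pak2 and Rock1 differed by -0.08 and -0.06, the formin Diaph1 by -0.07 and the scaffold Iqgap1 by 0.07. Rock1, Pak2 and Diaph1 were above the limit on none of the arrays. Iqgap1 exceeded it on diabetic replicate 2 alone.

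In branched nucleation, 7 of 8 measured genes had a difference above 0, against 48.7% of all genes, and none had an unadjusted p under 0.05. Of the 7, Arpc2 alone kept its sign whichever array was left out. Arpc2, a core subunit of the Arp2/3 complex, read 2.98, 2.77 and 3.14 in diabetic samples against 2.71, 2.66 and 3.00 in normal samples and differed by 0.17 (SE 0.15). Cttn, cortactin, which stabilizes branches, read 3.26, 3.38 and 3.43 in diabetic samples against 3.29, 3.60 and 3.48 in normal samples and differed by -0.10 (SE 0.15). It was the member of the role with lower signal in diabetic samples. Actr3 and Arpc5, other subunits of the complex, differed by 0.23 and 0.26, and both depended on diabetic replicate 1. Arpc5 was at 2.66 on diabetic replicate 1 and between 1.51 and 1.88 on the other 5 arrays, and its difference was -0.06 without that array. Without the same array the difference of Actr3 was -0.01. Arpc4 differed by 0.06, and the activators Wasl and Wasf2, which relay Cdc42 and Rac signals to the complex, by 0.01 and 0.03.

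Arpc1b, the subunit that carries the beta-propeller of the complex, had 2 probe sets that disagreed. The brighter, 10604763, read 2.67, 2.42 and 2.21 in diabetic samples against 2.39, 2.30 and 2.49 in normal samples and differed by 0.04 (SE 0.15). Its sign turned without diabetic replicate 1, at -0.08, and without normal replicate 2. The other, 10527441, read 2.43, 2.99 and 2.15 in diabetic samples against 1.32, 1.67 and 1.69 in normal samples. On this probe set every diabetic array exceeded its background limit, every normal array lay under its own, and the groups did not overlap. The difference was 0.96 (SE 0.23, 95% interval 0.43 to 1.5, unadjusted p 0.00373, adjusted p 0.845 in the limma fit of all probe sets), and 0.73 without diabetic replicate 2. This probe set was singled out after its values were seen, and 5.54% of all probe sets had an unadjusted p under 0.05. Of all genes, 10.7% had groups without overlap. The numbers of probe sets on this array follow the genome: for 99.8% of the probe sets of genes with 1 probe set, at least 50% of the nearest annotated probe sets by number, up to 5 on each side, belonged to genes on the same chromosome. For 10527441 all 10 neighbours lay on the chromosome of Arpc1b, and for 10604763 0 of 10 did. Of the probe sets used for the 43 members, 10604763 was the one placed away from its gene.

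The further single-gene probe sets of the members numbered 6. An unadjusted p under 0.05 was found for 2 of them, those of Arpc1b and Rhoa, against 5.54% of all probe sets. That of Rhoa (10515493) read 1.88, 1.95 and 2.06 in diabetic samples against 1.71, 1.69 and 1.8 in normal samples and differed by 0.23 (SE 0.10, adjusted p 0.877 in limma). Its groups did not overlap, which held for 10.7% of all genes. All 6 values lay under the limits of their arrays. On the chromosome of Rhoa lay 0 of its 10 neighbours, whereas all 10 neighbours of the probe set used above did. The second probe set of Myh9 was at 1.12 to 1.46 on every array and differed by 0.01.

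**Figure D3:**
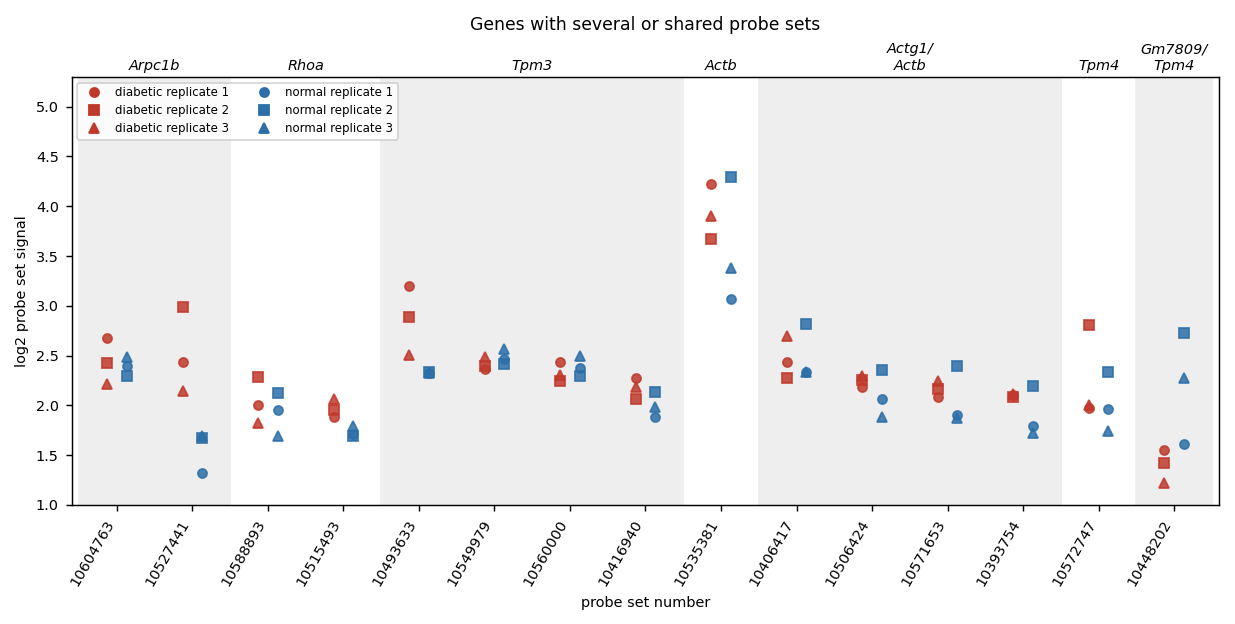
Log2 probe set signal (vertical axis) on 3 diabetic arrays (red) and 3 normal arrays (blue) for genes with several or shared probe sets, each column a probe set by its number. The groups do not overlap on the right-hand probe sets of Arpc1b (10527441) and Rhoa (10515493), on the first of the 4 for Tpm3 (10493633) and on the one shared by Gm7809 and Tpm4 (10448202). Of all genes 10.7% are without overlap, and the share of all probe sets was not counted.

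The linkers of actin to the membrane, Ezr (ezrin) and Msn (moesin), differed by 0.18 and -0.06. Ezr exceeded the limit on all 6 arrays, and Msn on normal replicate 2 alone.

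Tropomyosins and non-muscle myosin held the member with the largest difference, Tpm3. Tropomyosins wind along filaments and set which myosins and severing proteins can reach them. Tpm3 read 3.20, 2.89 and 2.50 in diabetic samples against 2.32, 2.34 and 2.32 in normal samples. All diabetic arrays lay above all normal ones, and the diabetic arrays were spread (SD 0.35) where the normal arrays were nearly equal (SD 0.01), normal replicates 1 and 3 holding the same value. The difference was 0.54 (SE 0.17, 95% interval 0.17 to 0.90, unadjusted p 0.00791, adjusted p 0.780 in limma). Leaving out diabetic replicate 1 gave 0.37 and leaving out diabetic replicate 3 gave 0.72, with an unadjusted p under 0.05 whichever array was left out. The other 3 probe sets of Tpm3 differed by -0.07, -0.06 and 0.17, and the mean over its 4 probe sets by 0.15 (adjusted p 0.915 in limma). Of the 4, the brightest had all 10 neighbours on the chromosome of Tpm3, and the other 3 had 0 of 10.

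Tpm1 read 1.91, 1.70 and 2.00 in diabetic samples against 1.84, 1.74 and 1.82 in normal samples and differed by 0.07 (SE 0.12), under the limit throughout. Tpm4 read 1.97, 2.80 and 2.00 in diabetic samples against 1.97, 2.34 and 1.74 in normal samples and differed by 0.25 (SE 0.22), but -0.03 once diabetic replicate 2 was left out. A probe set annotated to both Tpm4 and the predicted gene Gm7809 (10448202) ran the other way and read 1.55, 1.42 and 1.22 in diabetic samples against 1.61, 2.73 and 2.27 in normal samples. Its difference was -0.80 (SE 0.27, adjusted p 0.867 in the limma fit of all probe sets), and -0.54 without normal replicate 2. Tpm4 and Gm7809 cannot be told apart on it.

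Myl9 read 1.89, 2.36 and 2.37 in diabetic samples against 1.86, 1.92 and 1.82 in normal samples. Diabetic replicates 2 and 3 were high and above the limit, while diabetic replicate 1 lay within the normal range, so the groups overlapped. The difference was 0.34 (SE 0.14, 95% interval 0.03 to 0.65, unadjusted p 0.0358, adjusted p 0.875 in limma). An unadjusted p under 0.05 was kept in 1 of the 6 fits with an array left out, that without diabetic replicate 1. Myh9, the heavy chain of non-muscle myosin IIA, read 2.35, 3.17 and 2.51 in diabetic samples against 2.53, 2.41 and 2.42 in normal samples and differed by 0.23 (SE 0.19). Diabetic replicate 2 alone stood above the normal arrays for Myh9, and without it the difference was -0.02. Myl12a, another regulatory light chain, differed by -0.12.

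Muscle carries much tropomyosin and myosin light chain, so markers of muscle are given beside Tpm3 and Myl9. Of 15 skeletal muscle markers 12 had a difference above 0, against 48.7% of all genes. The log2 of the summed signal of these markers was 6.31 to 6.38 in diabetic against 6.18 to 6.30 in normal samples, without overlap. Acta1, Ckm, Mylpf, Tnni2 and Tnnc2 exceeded the limit on all 6 arrays, and the myosins Myh1 and Myh4 with Ttn, Neb and Myot on none. Of 12 smooth muscle and pericyte markers 7 had a difference above 0, with a summed signal of 5.61 to 5.72 in diabetic against 5.46 to 5.71 in normal samples. Myh11, the smooth muscle myosin, exceeded the limit on all arrays and differed by -0.04, and Acta2 differed by 0.17. Smtn, a smooth muscle protein, differed by 0.28 (unadjusted p 0.0443, adjusted p 0.887 in limma). It was the 1 of these 12 at an unadjusted p under 0.05, 8.33% against 5.56% of all genes. Smtn and Cspg4, at 0.15, were higher in diabetic samples without overlap, 2 of 12 (16.7%) against 10.7% of all genes. Of the 5 smooth muscle and pericyte markers below 0, Cnn1 differed by -0.26, and Tagln and Rgs5 by -0.07 each. Among the skeletal muscle markers Myh2 differed by 0.35 (unadjusted p 0.0147) and Myot by 0.27 (unadjusted p 0.0314), with adjusted p values in limma of 0.812 and 0.863. Myh2, Mylpf, Tnni2 and Myot did not overlap, 4 of 15 (26.7%) against 10.7% of all genes. The part of muscle RNA in the values of Tpm3 and Myl9 was not tested.

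None of the 3 crosslinkers exceeded the limit on all arrays. Flna, filamin A, which crosslinks filaments into a gel, read 1.85, 1.77 and 2.10 in diabetic samples against 1.54, 1.88 and 1.69 in normal samples. It differed by 0.20 (SE 0.13), with no array above the limit. The alpha-actinins Actn1 and Actn4 differed by -0.07 and -0.13.

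Among focal adhesion genes, Tln1 was the member whose groups separated. Tln1, talin, which activates integrins and carries force to actin, read 2.00, 2.05 and 2.15 in diabetic samples against 1.83, 1.71 and 1.88 in normal samples. Each diabetic value was above every normal value, and no normal value was above the limit of its array. The diabetic values exceeded their limits by small margins: 2.00 against 1.98, 2.05 against 2.01 and 2.15 against 2.11. Diabetic replicates 1 and 2 had the lowest limits, and their values lay under the limits of the other arrays, 2.11 to 2.12. The difference was 0.26 (SE 0.11, 95% interval 0.01 to 0.51, unadjusted p 0.0436, adjusted p 0.887 in limma), and 0.21 to 0.29 whichever array was left out. An unadjusted p under 0.05 was kept in 2 of the 6 fits with an array left out. Vcl, vinculin, which strengthens the talin link, read 1.67, 1.69 and 1.66 in diabetic samples against 1.68, 1.52 and 1.73 in normal samples and differed by 0.03 (SE 0.11), under the limit throughout.

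The kinase Src read 2.49, 3.39 and 3.18 in diabetic samples against 3.13, 2.68 and 2.47 in normal samples and differed by 0.26 (SE 0.23). Each group held high and low arrays, and without diabetic replicate 1 the difference was 0.52. Pxn, the adhesion scaffold paxillin, read 2.72, 2.89 and 2.75 in diabetic samples against 3.18, 2.51 and 3.00 in normal samples and differed by -0.11 (SE 0.17), with the diabetic arrays inside the normal range. Zyx, zyxin of mature adhesions, read 2.62, 2.39 and 2.68 in diabetic samples against 2.17, 2.67 and 2.62 in normal samples and differed by 0.07 (SE 0.16). Its sign turned without normal replicate 1, at -0.08. Vasp, which elongates filaments at adhesions and leading edges, read 3.79, 4.06 and 4.13 in diabetic samples against 4.03, 4.09 and 4.03 in normal samples and differed by -0.06 (SE 0.16). Lasp1, a zyxin-binding adaptor, read 2.43, 2.86 and 2.76 in diabetic samples against 2.59, 2.82 and 2.33 in normal samples and differed by 0.10 (SE 0.17). Both overlapped between groups. Enah, a relative of Vasp, differed by 0.15, and Ilk and Parva, partners in the complex that binds integrin tails, by 0.05 and 0.02.

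Other genes of the same machinery, from a list of 101 of which 94 were measured, were split evenly, with 49 above 0, 45 below 0 and a median difference below 0.01 in size. At an unadjusted p under 0.05 there were 2 higher and 0 lower, which is 2.13% of the 94 against 5.56% of all genes, and 0 passed the adjusted threshold in limma. Tmsb10, a thymosin that binds actin monomers, read 3.00, 1.98 and 2.18 in diabetic samples against 1.67, 1.67 and 1.71 in normal samples and differed by 0.70 (SE 0.21, adjusted p 0.780 in limma). The groups did not overlap. Tmsb10 had 2 single-gene probe sets and was read from the brighter, 10551009. The values of the other, and the chromosome of the neighbours by number, are not given here. No normal array was above its limit, and diabetic replicate 2 was under its own limit of 2.01. Without diabetic replicate 1, the highest array, the difference was 0.39. Trip6, a zyxin relative of adhesions, read 2.26, 2.55 and 2.31 in diabetic samples against 2.16, 1.99 and 2.01 in normal samples and differed by 0.32 (SE 0.13, adjusted p 0.859 in limma). Its groups did not overlap either. Among the 94 genes, 5 were higher and 5 lower in diabetic samples without overlap, which is 10.6% against 10.7% of all genes.

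As a sum over the 43 members, the log2 of the linear signal read 7.87, 7.89 and 7.87 in diabetic samples against 7.77, 7.85 and 7.74 in normal samples. The diabetic arrays lay above the normal ones, with normal replicate 2 close to them. For the 17 members above the limit on all arrays the sum read 7.02, 7.06 and 7.07 in diabetic samples against 6.88, 7.04 and 6.90 in normal samples, and the groups overlapped. Over all genes the same quantity read 16.46, 16.47 and 16.48 in diabetic samples against 16.42, 16.48 and 16.46 in normal samples, which overlapped. The median of the members read 2.15, 2.23 and 2.20 in diabetic samples against 2.16, 2.20 and 2.06 in normal samples, and the groups overlapped. A diabetic array held the highest value for 8, 10 and 12 members on replicates 1, 2 and 3, and a normal array for 3, 6 and 4. Over all genes the highest value fell on these arrays for 13.2%, 16.5% and 16.8% in diabetic and 16.7%, 16.8% and 20.1% in normal samples. The lowest value of a member was on diabetic replicates 1, 2 and 3 for 7, 6 and 7 members and on normal replicates 1, 2 and 3 for 6, 7 and 10. The spread between replicates was larger in the diabetic group for 26 of the 43 members, against 45.1% of all genes.

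The captured cells were checked against markers of keratinocytes and of other cells. Of 17 keratinocyte markers 3, namely Krt10, Sfn and Itgb4, were above the limit throughout. On no array was it exceeded by 6, namely E-cadherin (Cdh1), Krt6a, Krt16, Krt17, Col17a1 and Itga6. The basal keratins Krt5 and Krt14 exceeded it on 2 diabetic and 0 normal arrays each. They differed by 0.19 and 0.23, with groups that overlapped. For Krt14, normal replicate 2 read 2.07, under its limit of 2.11, and diabetic replicate 2 read 2.05, above its limit of 2.01. Trp63, a basal transcription factor, went the other way. It exceeded the limit on 0 diabetic and 2 normal arrays and differed by -0.31 (unadjusted p 0.0425, adjusted p 0.887 in limma). Dsp differed by -0.30, and Jup by 0.25, with groups that overlapped. Perp at -0.25 and Cdh1 at -0.16 were lower in diabetic samples without overlap, 2 of 17 (11.8%) against 10.7% of all genes. In all 8 of the 17 had a difference above 0 and 9 below. The summed signal of the 17 markers was 6.15 to 6.29 in diabetic against 6.20 to 6.41 in normal samples. For 8 fibroblast markers, 3 of them collagens above the limit on all arrays, it was 5.37 to 5.66 in diabetic against 5.37 to 5.44 in normal samples. Of 9 macrophage and neutrophil markers 8 exceeded the limit on no array, and S100a9 was the exception. For 5 endothelial markers, of which Cldn5 was above the limit throughout and Cdh5 and Tek on no array, the summed signal was 4.27 to 4.40 in diabetic against 4.32 to 4.40 in normal samples. The part of other cells in the values of the members was not tested.

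**Figure D4:**
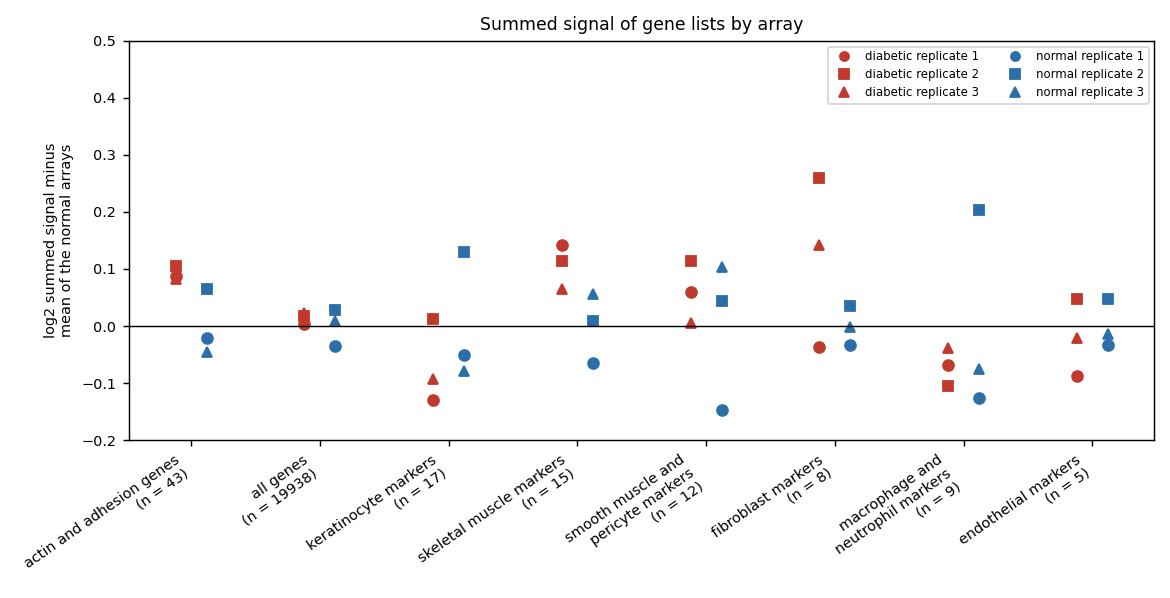
Log2 of the summed linear signal of each gene list minus the mean of the 3 normal arrays (vertical axis) for the 43 actin and adhesion genes, all 19938 genes and 6 marker lists (horizontal axis), with diabetic arrays in red and normal arrays in blue. The diabetic arrays lie above the normal ones for the actin and adhesion genes and for the skeletal muscle markers, and overlap with them for the other lists.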

How the data were processed

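The authors deposited log2 signals for 35556 probe sets on each of 6 arrays. The submitters' processing notes name Partek. Its version, the background correction, the normalization between arrays and the log base are not stated in the sources used here, and base 2 was taken from the range of the values. RNA came from fixed tissue, per the labels' protocols. Symbols came from the platform annotation (21789 with 1 symbol, 1621 with several, 12146 not listed), and they were updated by gene ID, with 21698 matched. No further scaling or filter was applied, and 0 columns belonged to other samples.

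All 19938 genes were fitted with limma 3.58.1 in R 4.3.3 (lmFit, eBayes with intensity trend, group as the only term), with Benjamini-Hochberg adjustment over all genes at a threshold of 0.05. The fit was tested on simulated data. The number of arrays limits the precision. Genes were given array by array if their unadjusted p was under 0.05, if the groups did not overlap, if they were among the 10 brightest members, or if they were on a fixed list of 21. Alternatives covered scaling, the variance model, array weights, a replicate block, probe set choice, filters on dim genes and each array left out. The members, the lists and the background limit were chosen with earlier results of these data known, and the choice of probe sets by neighbours was added after the probe sets were compared.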

Additional observations from a re-analysis of the deposited data

How the results depend on the processing

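Under every alternative tried, 0 members passed the adjusted threshold in limma, at an unadjusted p under 0.05 for 1 to 7 of them. Over all genes 2 passed without diabetic replicate 2 and 1 passed when diabetic replicate 3 was left out, none of them a member, and 0 passed otherwise. The count of members at an unadjusted p under 0.05, 4 as reported, ran from 2 to 7 with an array left out. Leaving out diabetic replicate 1 gave 7 (5.06% of all genes), and leaving out diabetic replicate 3 or normal replicate 1 gave 2 (5.3% and 5.69% of all genes). Over these fits 4.57% to 6.98% of all genes were at an unadjusted p under 0.05. Tpm3 and Rhob were in it whichever array was left out, Tln1 only without diabetic replicate 1 or normal replicate 3, and Myl9 only without diabetic replicate 1. Among genes above the limit on at least 3 arrays, which left 25 members, 1 was at an unadjusted p under 0.05 and 19 had a difference above 0. The shares of all genes under that filter were 5.72% and 56.7%. Members without overlap numbered 5 after quantile normalization and 5 when a gene's probe sets were averaged, against 3. The share of all genes without overlap was 10.7% in the main fit and was not counted under these settings. With the probe set on the gene's own chromosome, the count at an unadjusted p under 0.05 was 5 (5.58% of all genes), Arpc1b joining. The median difference lay between 0.02 and 0.10 with an array left out. Of the 23 measured genes that the rule for naming covers, which leaves out Arpc1b, 12 kept their sign under every alternative. With a 99th percentile limit, 3 members exceeded it on all arrays in place of 17. Deviations of same-numbered arrays from their group means correlated across genes at -0.02, 0.01 and 0.01. These values describe array signal alone, so they cannot show whether the samples were paired in capture or handling. With the replicate block, 3 members (5.75% of all genes) were at an unadjusted p under 0.05, Tln1 being lost, and 0 passed adjustment. The low signal over background limits what can be said of Rhob, Vcl, Tpm1, Flna and the kinases Rock1 and Pak2.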

Other observations

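Tns1, the gene of the focal adhesion protein tensin 1, had the highest mean signal of all 19938 genes, and the signal came from 1 of its 6 probe sets. Probe set 10355528 read 11.62, 11.53 and 11.64 in diabetic samples against 11.50, 12.06 and 11.76 in normal samples. The other 5 had means of 4.86, 3.87, 2.68, 2.11 and 1.96 over all arrays. The difference of the brightest was -0.18 (SE 0.16, adjusted p 0.918 in limma). Tns1 belongs to the list of other genes of the actin machinery, and it was singled out after its values were seen.

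Where a gene had several probe sets, 74.7% of 2620 such probe sets had numbers that placed them on the gene's chromosome, against 99.8% of 18922 for genes with 1. In both Arpc1b and Tpm3 the probe set placed on the gene's own chromosome was the one with the larger difference, 0.96 and 0.54, and in Rhoa it was the one with the smaller, 0.11 against 0.23, the latter from values under the background limit on every array.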
